A study of Homo sapiens with 18 samples.

Results

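Glutathione synthesis and recycling genes were followed in BE(2)-m17 human neuroblastoma cells that overexpressed the transporter ABCC1. The set holds 10 genes, taken by symbol from the 57905 Ensembl genes counted in every library, and all 10 had a row. In cells with extra ABCC1, GLRX was lower and GGT7 higher on average over 3 experiments, although the GGT7 call was lost with background reads as a covariate, and RNA1, the experiment with the least spread between libraries, also placed SLC7A11, GCLC and GCLM slightly higher and GGCT lower. By edgeR as filtered and scaled here, no member passed the test in RNA2 or RNA3 alone, whereas DESeq2 called GGT7 in RNA2.

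Both lines stably carried pSBbi-Hyg-APP, a Sleeping Beauty transposon vector for the amyloid precursor protein with hygromycin resistance. The control line, named Puro, also carried the empty vector pSBbi-Pur, and the line named ABCC1 carried pSBbi-Pur-ABCC1, with a codon-optimized human ABCC1 insert. Each was kept as puromycin-resistant cells. Each of 3 experiments (RNA1, RNA2 and RNA3) had 3 libraries of each line, 18 libraries in all. The study repeated the work once with cryopreserved and once with newly transfected cells, and the labels do not say which of RNA2 and RNA3 is which. Each line was plated weekly, received fresh medium every day and was then lysed for RNA. RNA1 was labelled as a TruSeq RNA v2 preparation, although its protocol label names a SMARTer total RNA kit. The other 2 were labelled as SMARTer total RNA preparations.

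Assigned read pairs ran from 27433393 to 57937653 per library in RNA1, from 19577853 to 30996228 in RNA2 and from 8866994 to 13332413 in RNA3. The common biological coefficient of variation between replicates was 5.67% in RNA1, 35.3% in RNA2 and 19.7% in RNA3. Counts on the ABCC1 insert were 328102 to 594404, 84990 to 148783 and 51035 to 58631 in the ABCC1 libraries of RNA1, RNA2 and RNA3, against 5 to 15, 2 to 8 and 0 to 3 in the Puro libraries, so every library matched its label. All 14 neuroblastoma markers reached a mean of 1 CPM (counts scaled to library size with TMM factors for library composition) in each group, and in RNA1 3 of them were called higher and 8 lower. Of 17 measured markers of other cell types, 2 reached 1 CPM in the RNA1 Puro group (DCN and ACTA2) and 3 in the RNA1 ABCC1 group (also COL1A1), with 2 and 3 of the 17 at 0. Their summed level in RNA1 was 61.8 CPM (Puro) and 87.8 CPM (ABCC1), with log2 fold changes of 0.99 for DCN, 0.83 for COL1A1 and -1.41 for ACTA2, and its part in the RNA1 results was not tested. In RNA2 and RNA3, 15 or 16 of the 17 did, and their summed level was 94.6 CPM (Puro) and 63.8 CPM (ABCC1) in RNA2 and 209 and 159 CPM in RNA3.

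The last point bears on the weakly expressed members. Reads on 372 olfactory receptor genes, which are expressed mainly in olfactory neurons, served as a measure of background, in CPM per kb of exon. The mean was 0.00486 in RNA1 Puro and 0.00404 in RNA1 ABCC1. It was 0.576 ± 0.088 (SD, n = 3) and 0.302 ± 0.14 in the Puro and ABCC1 groups of RNA2, and 1.57 ± 0.095 and 1.24 ± 0.16 in those of RNA3. Puro libraries carried more background than ABCC1 libraries in all 3 experiments, with no overlap between the groups. What part of a member's difference the background makes up was not tested, and values with the background subtracted are given for the members with the largest shares of it.

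Glutathione is a tripeptide of glutamate, cysteine and glycine that cells use to reduce peroxides and disulfides and to tag compounds for export, and ABCC1 is one of the pumps that carry it and its conjugates out of the cell. Cystine enters through SLC7A11, the transport subunit of system xc-. GCLC and GCLM, the catalytic and modifier subunits of glutamate-cysteine ligase, make the first and rate-limiting bond, and GSS adds glycine. Oxidized glutathione is reduced again by GSR. GPX4 spends glutathione on lipid peroxides and GLRX, glutaredoxin, spends it on protein-glutathione disulfides. Breakdown starts with the gamma-glutamyl transferase family, of which GGT7 is a member whose activity is poorly characterised, and runs through GGCT, a gamma-glutamylcyclotransferase, and OPLAH, 5-oxoprolinase, which returns glutamate.

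Promoter sequence from RefSeq (GRCh38.p14) was matched by symbol for 5 of the 10 members: GCLC, GCLM, GLRX, GGT7 and GPX4. Shown here are the 250 bases before the start of the 4 genes on which the results turn, GLRX and GGT7, which moved on average over experiments, and the ligase subunits, which were both called higher in RNA1. Each runs 5′ to 3′ on the gene's strand, the minus strand for all 4, and capitals mark a match to the antioxidant response element core.
GLRX, chr5:95822727-95822976: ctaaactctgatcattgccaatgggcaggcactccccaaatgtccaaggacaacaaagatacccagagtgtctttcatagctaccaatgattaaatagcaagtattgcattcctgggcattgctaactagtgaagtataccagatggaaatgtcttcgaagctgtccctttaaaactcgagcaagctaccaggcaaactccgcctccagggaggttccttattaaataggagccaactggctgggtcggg
GGT7, chr20:34872857-34873106: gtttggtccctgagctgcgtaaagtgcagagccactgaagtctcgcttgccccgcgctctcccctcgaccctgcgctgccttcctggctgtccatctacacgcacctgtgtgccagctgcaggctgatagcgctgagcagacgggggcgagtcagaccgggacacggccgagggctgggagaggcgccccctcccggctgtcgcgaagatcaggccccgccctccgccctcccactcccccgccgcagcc
GCLC, chr6:53545102-53545351: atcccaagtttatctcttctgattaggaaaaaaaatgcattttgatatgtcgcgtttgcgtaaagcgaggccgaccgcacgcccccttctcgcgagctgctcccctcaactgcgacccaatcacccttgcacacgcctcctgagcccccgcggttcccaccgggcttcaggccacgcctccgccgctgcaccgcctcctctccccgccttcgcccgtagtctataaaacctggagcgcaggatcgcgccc
GCLM, chr1:93909431-93909680: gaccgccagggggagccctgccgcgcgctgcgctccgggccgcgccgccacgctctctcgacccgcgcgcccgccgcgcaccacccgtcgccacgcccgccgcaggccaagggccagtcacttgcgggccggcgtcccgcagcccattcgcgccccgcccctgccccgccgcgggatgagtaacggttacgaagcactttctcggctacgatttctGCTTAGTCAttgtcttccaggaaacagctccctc

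The antioxidant response element core searched was TGACNNNGC, on both strands, the motif bound by NFE2L2 with small MAF proteins. GCLM held the only match among the 5 matched members, on the opposite strand and beginning 34 bases before the start, while 10.9% of all 35116 promoter windows of this length held one. The amino acid response element core, searched as TGATGNAAN on both strands, had no match in these 5 genes and was present in 3.13% of windows. These are descriptions of letters in a window.

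Per kb of exon, the scale on which genes can be set side by side, GPX4 stood highest in all 6 groups, from 57.5 ± 3.2 (SD, n = 3) CPM per kb in RNA1 Puro to 80.1 ± 3.9 in RNA2 ABCC1. GGCT came next in every group, at 19.9 to 43.0. In RNA1 Puro, GSR was at 20.6, SLC7A11 at 18.8 and GSS at 18.5, and the ranges of the last pair overlapped. GGT7 followed at 12.6, then GCLC at 5.62, GCLM at 3.30 and GLRX at 2.39, with no overlap between neighbours. The catalytic ligase subunit was therefore read above the modifier in RNA1, and in RNA3 likewise in both lines without overlap, whereas in RNA2 the ranges of GCLC and GCLM overlapped in both lines. OPLAH was last or next to last throughout, with 2 to 6 counts per library in RNA1, too few to test. In RNA3 GCLC, GCLM, GLRX and OPLAH all lay between 2.00 and 3.19 CPM per kb, and the background amounted to 39.3% to 64.3% of their level there, against 1.75% to 18.9% for the other 6.

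**Figure D1:**
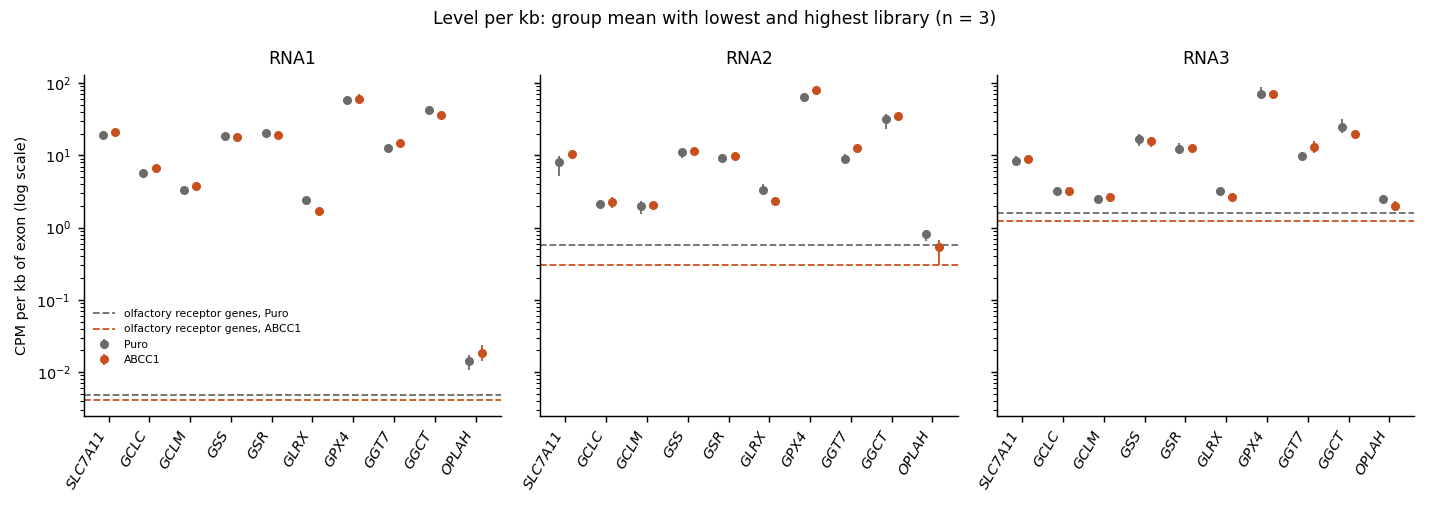
Level of each member in CPM per kb of exon on a log axis, 1 panel per experiment; points are group means, bars run from the lowest to the highest of 3 libraries, and dashed lines are the mean level of olfactory receptor genes in each line. GPX4 tops every panel, and in RNA3 GCLC, GCLM, GLRX and OPLAH lie just above the dashed lines at 1.57 and 1.24.

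The question put to each experiment was whether the ABCC1 line differed from the Puro line. The edgeR quasi-likelihood test was run over all genes that passed a filter on low counts, a gene was called at an adjusted p (Benjamini-Hochberg) of at most 0.05, and fold changes are log2 of ABCC1 over Puro. In RNA1, 6 of the 9 members tested were called, 4 higher and 2 lower. That experiment called 37.6% of all genes tested, 17.9% higher and 19.7% lower, so a called member was no rare event there. GSS, GSR and GPX4 were not called. With background reads as a covariate only GLRX remained called in RNA1, while the changes of the other called members stayed near their size (GCLC 0.28, SLC7A11 0.16, GCLM 0.14, GGT7 0.22 and GGCT -0.22). That covariate does not overlap between the lines, and background was at most 0.241% of the level of any member tested in RNA1, so these lost calls say nothing of background there. With the spread shared across all 18 libraries none was called. In RNA2 none of the 10 members was called (0 of 10, with 1.7% of all genes called, 1.25% higher and 0.458% lower), and in RNA3 likewise 0 of 10 (2.8% of all genes, 2.03% higher and 0.767% lower). At an unadjusted p under 0.05 the counts were 2 in RNA2 (GLRX and GGT7) and 1 in RNA3 (GGT7), and DESeq2 called 5 in RNA1 (not GCLM, adjusted p = 0.0658), 1 in RNA2 (GGT7) and 0 in RNA3. Fitted over all 18 libraries, the mean of the 3 within-experiment effects was called for 2 of 10, GGT7 higher and GLRX lower, where 12.9% of all genes were called, 9.39% higher and 3.55% lower. The test of a difference in effect between experiments passed for no member (0 of 10 by edgeR at either an adjusted or an unadjusted p of 0.05, and 0 by DESeq2, with 1.19% of all genes called by edgeR).

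Scaling moved some of these figures. The median over all genes was a log2 fold change of 0.01 in RNA1, -0.19 in RNA2 and -0.09 in RNA3, and size factors from RLE raised the RNA2 values by a median of 0.11 and the genes called there from 581 to 1086. Of the genes called in RNA2, 73.1% were higher, but 42.8% were in the fit over all 18 libraries, which also shares the spread, so that most calls there were lower. In RNA3 72.6% of the calls were higher, against 92.4% in that fit and 82.9% with RLE factors. TMM factors taken over all 18 libraries raised the RNA1 effects by a median of 0.10 against factors from RNA1 alone, so the mean effects sit on a scale whose median over all genes was -0.08, and -0.14 with factors from within each experiment. On the latter scale 62.2% of the genes called were higher, and with RLE factors 57.2%, against 72.6%.

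**Figure D2:**
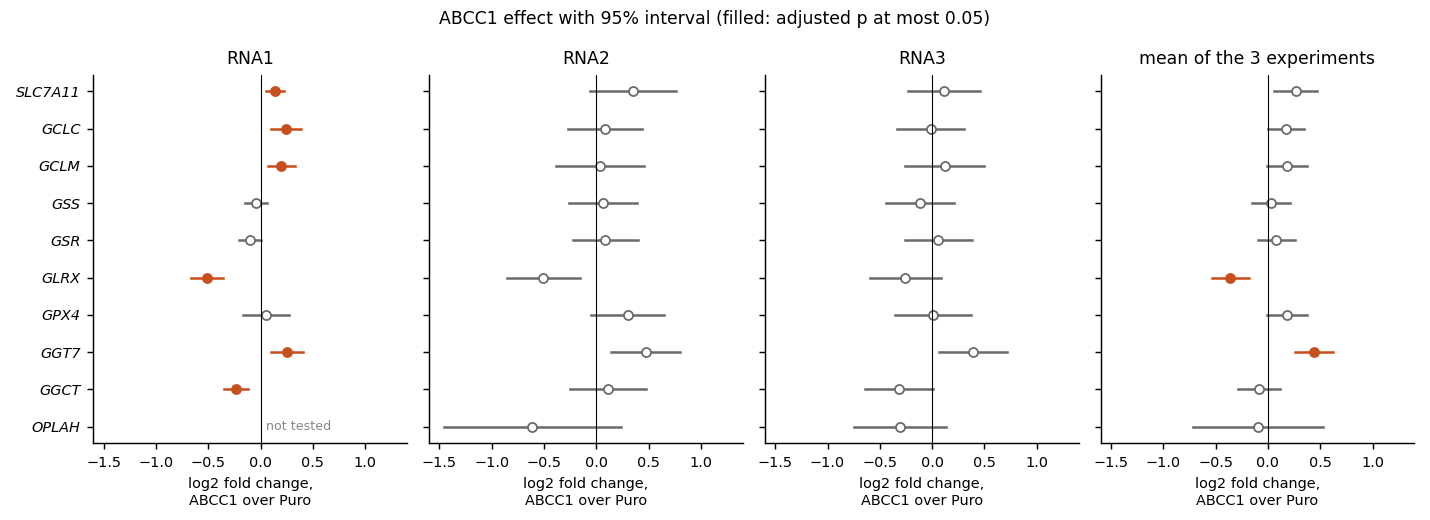
Log2 fold change of ABCC1 over Puro for the 10 members in each experiment and as the mean of the 3; lines are 95% intervals and filled points have an adjusted p of at most 0.05. In RNA1 6 members are filled, in RNA2 and RNA3 none, and in the mean GLRX (-0.36) and GGT7 (0.44).

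GLRX, which removes glutathione from protein cysteines, had the largest change of the 9 members tested in RNA1. It lies at chr5:95087023-95158709 (GRCh37, minus strand, ENSG00000173221), and its counts there were 704, 419 and 478 in the Puro libraries and 610, 335 and 672 in the ABCC1 libraries. Scaled to library size, these were 16.2, 15.4 and 15.2 CPM against 10.8, 10.4 and 11.6 CPM. Every ABCC1 library was below every Puro library, and the log2 fold change was -0.51 ± 0.07 (SE; 95% interval -0.66 to -0.36; adjusted p = 2.39e-04), a level 70.2% of Puro.

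The RNA2 values of GLRX were 19.1, 20.1 and 26.0 CPM in Puro and 15.9, 15.1 and 14.8 CPM in ABCC1. The groups again did not overlap, and the fitted change was the same size with a wider error, -0.51 ± 0.17 (adjusted p = 0.101). It was called with at least 10 counts in every library (-0.63, adjusted p = 0.0295) and with the spread shared across 18 libraries (-0.49, adjusted p = 0.0300). No other alternative setting called it in RNA2. In RNA3 GLRX was at 20.2, 19.9 and 21.6 CPM in Puro and 18.6, 15.9 and 17.1 CPM in ABCC1. The groups stood apart once more, with a change of -0.26 ± 0.17 (adjusted p = 0.507). Groups without overlap were seen for 50.4%, 29.8% and 19.5% of the genes tested in RNA1, RNA2 and RNA3, and in the lower direction for 25.7%, 16.4% and 10.9%.

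Background touched GLRX in the last 2 experiments, at 17.2% (Puro) and 12.9% (ABCC1) of its level in RNA2 and 49.8% and 46.9% in RNA3. With each library's background subtracted, the log2 ratio of the group means was -0.43 in RNA2 and -0.18 in RNA3, and the groups overlapped in both. In RNA3 the difference was -0.51 CPM per kb, and the background itself differed by -0.33. In RNA1, where the background was 0.241% of the level or less, subtraction left the ratio at -0.51. The mean effect over experiments was -0.36 ± 0.09 (adjusted p = 0.00281), and -0.41 (adjusted p = 0.0218) when the fit took each library's background level as a covariate. With scaling factors from within each experiment it was -0.42 (adjusted p = 1.64e-04).

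GGT7 moved the other way. The gene (chr20:33432523-33460663, minus strand, ENSG00000131067) had 1600, 1048 and 1158 counts under Puro in RNA1 and 2307, 1402 and 2844 under ABCC1. In CPM these were 36.8, 38.5 and 36.7 against 40.8, 43.5 and 49.0. All ABCC1 libraries were higher, by 0.25 ± 0.07 (95% interval 0.10 to 0.40; adjusted p = 0.0137). This call was lost without Puro replicate 1 or Puro replicate 3.

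RNA2 gave GGT7 levels of 25.7, 30.7 and 23.2 CPM in Puro and 39.8, 38.0 and 32.8 CPM in ABCC1. The groups were apart, as they were in the higher direction for 13.5% of genes, and the change was 0.47 ± 0.16 (adjusted p = 0.105; 0.0385 by DESeq2). In RNA3 the values were 28.7, 33.4 and 26.0 CPM in Puro and 31.9, 47.4 and 36.4 CPM in ABCC1. ABCC1 replicate 1 fell inside the Puro range, whereas 8.59% of genes had ABCC1 wholly above Puro there. The change was 0.39 ± 0.16 (adjusted p = 0.209). It was 0.56 (adjusted p = 0.0316) without that library and 0.51 (adjusted p = 0.0361) without Puro replicate 2, but 0.22 (adjusted p = 0.751) without ABCC1 replicate 2. The mean effect was 0.44 ± 0.09 (95% interval 0.26 to 0.62; adjusted p = 3.34e-04), a level 136% of Puro. It was 0.37 (adjusted p = 9.67e-04) with scaling factors from within each experiment, and 0.27 with adjusted p = 0.202 once background reads entered as a covariate, which ended the call. Subtracting the background left GGT7 higher, at log2 ratios of 0.53 in RNA2 and 0.50 in RNA3, where background was at most 15.9% of its level.

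**Figure D3:**
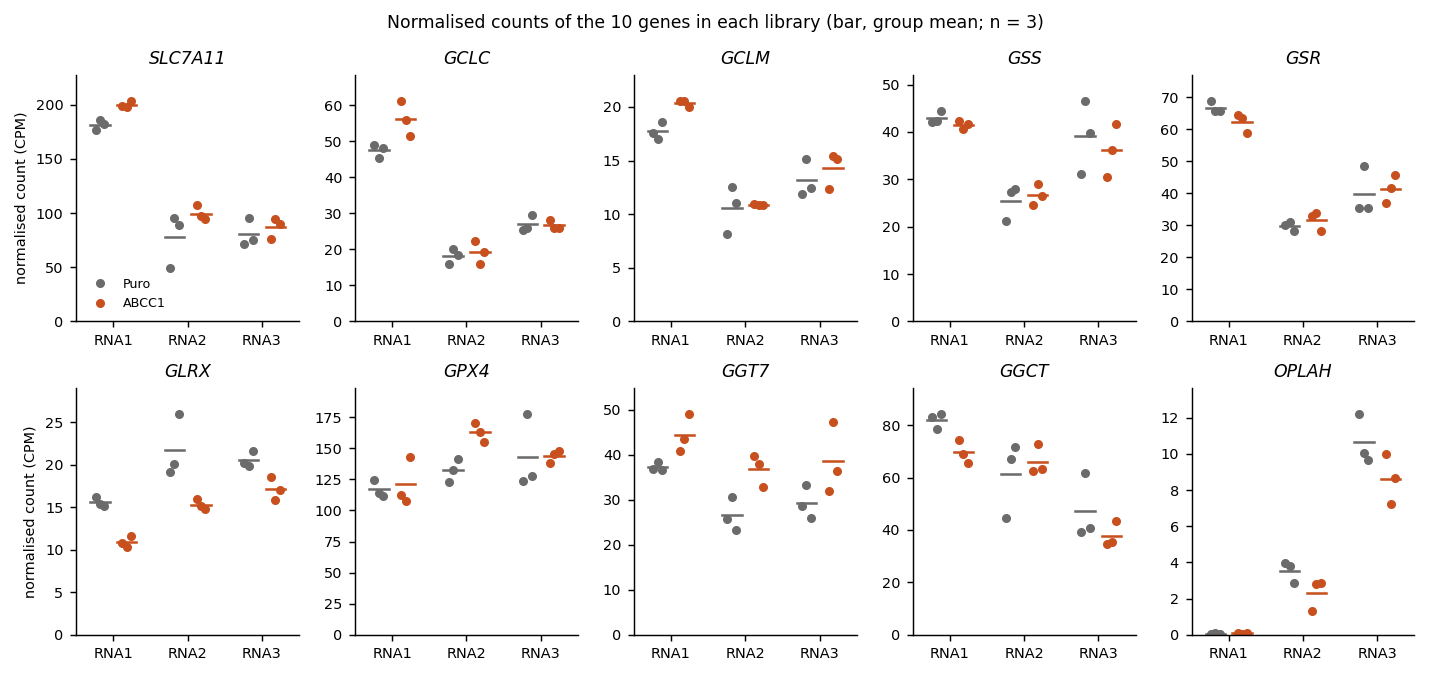
CPM of each member in every library, from 0 upward, grouped by experiment and line; dots are libraries and bars are means of 3. GLRX is lower in the ABCC1 line in each experiment without overlap, and GGT7 is higher with overlap in RNA3 alone.

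Cystine import and the ligase were called together in RNA1. SLC7A11 (chr4:139085251-139163503, minus strand, ENSG00000151012) was at 176, 186 and 182 CPM in the Puro libraries and 199, 198 and 203 CPM in the ABCC1 libraries, a log2 fold change of 0.14 ± 0.04 (adjusted p = 0.0167). GCLC (chr6:53362139-53481768, minus strand, ENSG00000001084) was at 49.0, 45.5 and 48.1 CPM against 61.2, 56.1 and 51.6 CPM, a change of 0.24 ± 0.06 (adjusted p = 0.0128). GCLM (chr1:94350761-94374966, minus strand, ENSG00000023909) was at 17.5, 17.04 and 18.6 CPM against 20.5, 20.6 and 19.9 CPM, a change of 0.20 ± 0.06 (adjusted p = 0.0230). The groups did not overlap for any of these 3, as for 24.7% of all genes in the higher direction. All 3 calls rested on narrow margins: SLC7A11 was lost without Puro replicate 1 or 3, GCLC without Puro replicate 2 or ABCC1 replicate 1, and GCLM without Puro replicate 1 or 2 or ABCC1 replicate 1 or 2.

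The other 2 experiments did not separate the lines for these genes. In RNA2 SLC7A11 was at 49.7, 95.1 and 88.9 CPM in Puro and 107, 96.9 and 94.1 CPM in ABCC1, a difference of 0.35 (-0.06 to 0.76) that was 0.14 without Puro replicate 1, the lowest library. RNA3 gave SLC7A11 71.4, 95.2 and 74.7 CPM in Puro and 76.1, 94.8 and 89.9 CPM in ABCC1, a difference of 0.11 (-0.23 to 0.45). GCLC was at 15.9, 20.0 and 18.3 CPM in RNA2 Puro and 22.3, 16.03 and 19.2 CPM in RNA2 ABCC1, with the Puro values inside the ABCC1 range but for 1 library, and differed by 0.08 (-0.27 to 0.44). In RNA3 it was at 25.4, 26.0 and 29.5 CPM against 28.3, 26.0 and 25.8 CPM, overlapping groups that differed by -0.01 (-0.33 to 0.31). GCLM was at 8.18, 12.5 and 11.1 CPM in RNA2 Puro and 10.9 CPM in each RNA2 ABCC1 library, a difference of 0.04 (-0.38 to 0.46). In RNA3 it was at 11.9, 15.2 and 12.4 CPM against 12.3, 15.5 and 15.2 CPM, a difference of 0.12 (-0.26 to 0.50). Changes of the size seen in RNA1 lie inside all of these intervals.

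Background amounted to 27.0% and 13.3% of the level of GCLC (Puro and ABCC1) and 29.2% and 14.9% of that of GCLM in RNA2. In RNA3 it was 49.4% and 39.3% for GCLC and 64.3% and 46.5% for GCLM. For SLC7A11 it was 7.13% and 2.93% in RNA2 and 18.9% and 13.8% in RNA3, and its log2 ratios after subtraction were 0.41 and 0.20. After subtraction the log2 ratios were 0.33 for GCLC and 0.31 for GCLM in RNA2 and 0.25 and 0.70 in RNA3, on values with no test, and the groups of GCLC were then apart in RNA3 while those of GCLM still overlapped. Over the 3 experiments the mean effect was 0.27 ± 0.10 for SLC7A11 (adjusted p = 0.0802, or 0.0498 with no filter on low counts), 0.17 ± 0.09 for GCLC (adjusted p = 0.247) and 0.18 ± 0.09 for GCLM (adjusted p = 0.257), none of them called as filtered. Annotated overlaps limit what a strand-blind count can say here: SLC7A11 shares 865 exon bases, 8.97% of its exon length, with the antisense gene SLC7A11-AS1, and GCLC shares 529 with ENSG00000231683 and 7 with GCLC-AS1.

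GSS, which completes the tripeptide, and GSR, which recycles it, were not called in any comparison. GSS (chr20:33516236-33543620, minus strand, ENSG00000100983) was at 42.1, 42.3 and 44.4 CPM in RNA1 Puro and 42.3, 40.6 and 41.6 CPM in RNA1 ABCC1, a difference of -0.05 with a 95% interval of -0.15 to 0.06. Its RNA2 libraries ran from 21.1 to 28.0 CPM in Puro and 24.7 to 29.0 CPM in ABCC1, a difference of 0.06 (-0.26 to 0.39), and its RNA3 libraries from 31.1 to 46.5 CPM and 30.6 to 41.6 CPM, a difference of -0.12 (-0.44 to 0.21). GSR (chr8:30535583-30585443, minus strand, ENSG00000104687) was at 68.8, 65.6 and 65.5 CPM in RNA1 Puro and 64.3, 63.5 and 58.8 CPM in RNA1 ABCC1. These groups did not overlap, yet the difference, -0.10 (-0.21 to 0.01), missed the threshold with adjusted p = 0.133. In RNA2 GSR ran from 28.3 to 30.98 CPM in Puro and 28.3 to 33.7 CPM in ABCC1, overlapping, with a difference of 0.09 (-0.23 to 0.40). In RNA3 it ran from 35.3 to 48.4 CPM and 37.0 to 45.6 CPM, with a difference of 0.06 (-0.26 to 0.38). Background was 12.8% and 9.68% of the GSR level in RNA3, and the log2 ratio after subtraction was 0.11. For GSS it was 9.34% and 7.98%, and the ratio -0.09.

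GPX4, the lipid peroxidase (chr19:1103936-1106787, plus strand, ENSG00000167468), was at 124, 114 and 112 CPM in RNA1 Puro and 112, 107 and 143 CPM in RNA1 ABCC1. ABCC1 replicate 3 alone exceeded the Puro range, and the difference was 0.05 (-0.17 to 0.27), or -0.09 without it. RNA2 showed 123, 133 and 141 CPM in Puro and 171, 163 and 155 CPM in ABCC1, groups apart at 0.30 (-0.05 to 0.65; adjusted p = 0.301). In RNA3 Puro replicate 2 stood at 177 CPM beside 123 and 128 CPM, the ABCC1 libraries lay between, at 138 to 148 CPM, and the difference was 0.01 (-0.36 to 0.37). The mean effect was 0.19 ± 0.10 (adjusted p = 0.256).

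GGCT, which cleaves gamma-glutamyl peptides, was called in RNA1 alone. The gene (chr7:30536237-30591095, minus strand, ENSG00000006625) was at 83.1, 78.7 and 84.1 CPM in Puro and 74.4, 68.9 and 65.7 CPM in ABCC1, apart without overlap and changed by -0.23 ± 0.05 (95% interval -0.35 to -0.12; adjusted p = 0.00594). Like GLRX, it kept its RNA1 call when any 1 library was left out. The difference was 0.11 (-0.26 to 0.48) in RNA2, where Puro replicate 1 was at 44.6 CPM and the others of that group at 67.2 and 71.7 CPM. It was -0.32 (-0.65 to 0.01; adjusted p = 0.354) in RNA3, where Puro replicate 2 was at 61.6 CPM and the rest of the libraries at 34.7 to 43.3 CPM. Without that library the RNA3 difference was -0.07, and leaving out 1 library at a time gave -0.42 to -0.07. A test of the difference between experiments did not pass (adjusted p = 0.866). GGCT shares 308 exon bases, 16.2% of its exon length, with GARS1-DT on the same strand, and 162 with ENSG00000263683, which had no counts.

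OPLAH (chr8:145106167-145118735, minus strand, ENSG00000178814) was at the limit of detection. It had 2, 2 and 2 counts in RNA1 Puro and 4, 2 and 6 in RNA1 ABCC1 and was filtered out. RNA2 gave 3.98, 3.81 and 2.84 CPM in Puro and 1.30, 2.79 and 2.87 CPM in ABCC1, and RNA3 gave 12.2, 10.1 and 9.69 CPM against 10.0, 7.22 and 8.67 CPM. The differences of -0.61 (-1.46 to 0.23) and -0.31 (-0.74 to 0.13) were not called, and the background was 56.2% to 70.2% of its level in these groups. After subtraction the log2 ratio was -0.06 in RNA2 and -0.24 in RNA3. Without ABCC1 replicate 1 the RNA2 difference was -0.32. OPLAH also shares 207 exon bases with SMPD5 on the other strand.

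Across the 18 libraries, with each experiment's mean removed from log2(CPM + 0.5), some members varied together. The pairs with the highest Pearson correlation were SLC7A11 with GCLM (0.85) and GSS with GGCT (0.85), and GLRX ran opposite to GGT7 (-0.78). The line was not removed, so that last value also holds the opposite differences of GLRX and GGT7 between the lines. GCLC, by contrast, had a coefficient of 0.43 with SLC7A11 and 0.42 with GCLM. These points share library depth and background and are a description over 18 libraries. Among 13637 genes with a mean of at least 1 CPM in each experiment, SLC7A11 was most like TARS1 (0.95), SNU13 (0.93) and NUP88 (0.93). The genes most like GCLM were H2BC21 (0.90), SCCPDH (0.89) and WDR76 (0.88), and those most like GCLC were SULT1C4 (0.77), BTN3A1 (0.76) and EEF1AKMT3 (0.75). RNA2 Puro replicate 1 was the lowest library of its experiment for SLC7A11, GCLC, GCLM, GSS and GGCT.

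The surrounding pathway was read from 9 lists of 105 genes in all. In the mean effect over experiments, 22 of the 105 were called higher (20.95%, against 9.39% of all genes tested) and 3 lower (2.86%, against 3.55%). All genes tested were 46225 here and 16995 in RNA1, so the 9.39% also covers genes too weakly read in RNA1 to test. What part of the gap in shares comes from expression level was not tested. On scaling factors from within each experiment the counts were 17 and 6, with 20 of the 25 calls shared, where 7.23% of all genes were higher and 4.39% lower. With background reads as a covariate they were 5 and 4, with 7 shared, where 2.83% of all genes were higher and 1.92% lower. In RNA1 15 of 85 were higher and 17 lower, close to the 17.9% and 19.7% of all genes tested there. The counts were 0 and 1 of 105 in RNA2 (1.25% and 0.458% of all genes) and 3 and 1 in RNA3 (2.03% and 0.767%). The named genes below are those called in the mean effect, at most 4 per list by size, besides ABCC1 as the targeted gene, CHAC1 and genes given as limits of a list.

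Among genes of cysteine and glutamate supply, 3 of 15 were higher and none lower, with a median of 0.21 against -0.08 for all genes. The latter is over all 46225 genes tested, weakly read ones included, and the median of 16 markers of other cell types was -0.40. A list median above -0.08 is therefore not in itself a shift of that list. SLC3A2, the heavy chain that pairs with SLC7A11, rose by 0.54 ± 0.11 (adjusted p = 1.57e-04), with 0.33 in RNA1 (adjusted p = 0.00105), 0.42 in RNA2 and 0.67 in RNA3. The glutamine carrier SLC1A5 (0.34) and the methionine adenosyltransferase MAT2A (0.35) also rose. MAT2A was called lower in RNA1 (-0.15, adjusted p = 0.0419), so its mean rests on RNA2 (0.42) and RNA3 (0.58). SLC1A5 stood at 0.14 in RNA1 and was called in no single experiment. None of these 3 genes was called with the background covariate. That covariate does not overlap between the lines, and background was at most 2.65% of the level of these 3 in any group. Calls lost with it, here and in the lists below, therefore do not measure the part of background.

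In the list of peroxidases, redoxins and thioredoxin, 4 of 18 were higher and none lower, with a median of 0.21. These were PRDX6 (0.41 ± 0.10), a peroxiredoxin that uses glutathione, the thioredoxin reductase TXNRD1 (0.35 ± 0.09), GPX7 (0.26 ± 0.09) and TXNDC12 (0.25 ± 0.09). GPX7 (0.06 in RNA1) and TXNDC12 (0.08 in RNA1) were called in no single experiment. GPX7 and TXNDC12 lost their calls with within-experiment scaling, and all 4 with the background covariate, at 0.27 for PRDX6, 0.29 for TXNRD1, 0.13 for GPX7 and 0.18 for TXNDC12. Of NADPH suppliers, TKT was higher (0.32 ± 0.10) and IDH2, a mitochondrial source, lower (-0.39 ± 0.09), 1 of 12 each way with a median of 0.08. TKT stood at 0.04 in RNA1 and was called in no single experiment. IDH2 was lower in RNA1 (-0.39, adjusted p = 6.50e-05) and RNA3 (-0.74, adjusted p = 0.00356) and stood at -0.24 in RNA2.

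Glyoxalase and thioester hydrolases had 1 of 6 each way and a median of -0.05. GLO1, which condenses methylglyoxal with glutathione, fell (-0.32 ± 0.10, adjusted p = 0.0247), and the hydrolase-like gene HAGHL rose (0.68 ± 0.11, adjusted p = 5.16e-06). In the remaining breakdown genes 1 of 14 was higher, the dipeptidase CNDP2 (0.37 ± 0.09), with a median of -0.09. CNDP2 stood at 0.06 in RNA1 and was called in no single experiment. Background was 68.5% (Puro) and 42.1% (ABCC1) of its level in RNA3. RNA1 tested 7 of the 14. GGTLC1, GGTLC2, DPEP1, DPEP2 and DPEP3 had 0 CPM there in both lines, so the median rests partly on effects that RNA1 cannot estimate. CHAC1, which degrades glutathione and was picked out after its values were seen, missed the threshold in the mean (-0.31, adjusted p = 0.0520). It was lower in RNA1 (-0.42, adjusted p = 4.09e-04) and in the mean with RLE factors (-0.40, adjusted p = 0.00191), within-experiment scaling (-0.38, adjusted p = 0.00733) and the covariate (-0.63, adjusted p = 1.61e-04). Selenocysteine incorporation, on which GPX4 protein depends, had 3 of 8 higher and none lower with a median of 0.23: SEPHS2 (0.42), SARS, now SARS1 (0.35), and SECISBP2 (0.32). In RNA1 these 3 stood at 0.024, 0.064 and 0.0057 and were not called. Of them only SEPHS2 was called in a single experiment (RNA3, 0.69, adjusted p = 0.00737). None of these 3 was called with the background covariate, where their changes were 0.23, 0.12 and 0.23. Nor were HAGHL (0.39), CNDP2 (0.22) and TKT (0.23). The partners of GPX4 in lipid peroxidation had 2 of 9 higher, VKORC1L1 (0.57 ± 0.09) and DHODH (0.42 ± 0.09), with a median of -0.01, and both kept their calls with the background covariate.

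Transporters of glutathione and conjugates had 4 of 14 higher and 1 lower, with a median of 0.10. ABCC4 (0.41 ± 0.09), ABCC5 (0.36 ± 0.09) and ABCC11 (0.55 ± 0.16) were higher, and so was the endogenous ABCC1 gene (0.26 ± 0.09, adjusted p = 0.0476), which the codon-optimized insert is counted apart from. The call of the endogenous gene was lost with RLE factors (adjusted p = 0.128), with within-experiment scaling (0.107) and with the background covariate (0.847). ABCC11 was higher in RNA1 (2.27) and stood at -0.54 in RNA2 and -0.28 in RNA3, a difference between experiments that passed its test (adjusted p = 7.71e-06), and its mean call was lost with RLE factors (adjusted p = 0.0987) and within-experiment scaling (0.0666) but kept with the covariate (1.11, adjusted p = 1.38e-07). Background was 51.8% (Puro) and 39.7% (ABCC1) of the ABCC11 level in RNA2 and 53.2% and 51.0% in RNA3. With the covariate, which does not overlap between the lines in any experiment, ABCC4 stood at 0.27 (adjusted p = 0.198) and ABCC5 at 0.23 (adjusted p = 0.324). Endogenous ABCC1 was at 152 ± 2.21 CPM in RNA1 Puro and 151 ± 7.93 CPM in RNA1 ABCC1. CFTR was lower (-2.04), but it had no counts in the RNA1 ABCC1 libraries and 0.0672 CPM in Puro, so this fitted value depends on the small count that edgeR adds. Its level in RNA2 (0.301 and 0.0964 CPM per kb in Puro and ABCC1) and RNA3 (0.739 and 0.5004) was below the background of each group, which was itself lower in ABCC1. Among regulators 3 of 9 were higher, with a median of 0.20: the small MAF protein MAFF (0.84 ± 0.09, adjusted p = 4.66e-10), KEAP1 (0.35 ± 0.09), which restrains NFE2L2, and BACH1 (0.26 ± 0.09), a repressor at antioxidant response elements. In RNA1 1 of the 9 was called higher and 3 lower. The lower ones were NFE2L2 itself (-0.27, adjusted p = 3.30e-04), NFE2L1 (-0.14, adjusted p = 0.0306) and ATF3 (-0.33, adjusted p = 0.00172), none of them called in the mean effect. MAFF was called in RNA1 (0.94) and RNA3 (0.78) and stood at 0.58 in RNA2, and it kept its call with the covariate, whereas KEAP1 (0.12) and BACH1 (0.12) did not. KEAP1 and BACH1 were each at 0.07 in RNA1 and called in no single experiment. BACH1 also lost its call with RLE factors (adjusted p = 0.111) and within-experiment scaling (0.0784).

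**Figure D4:**
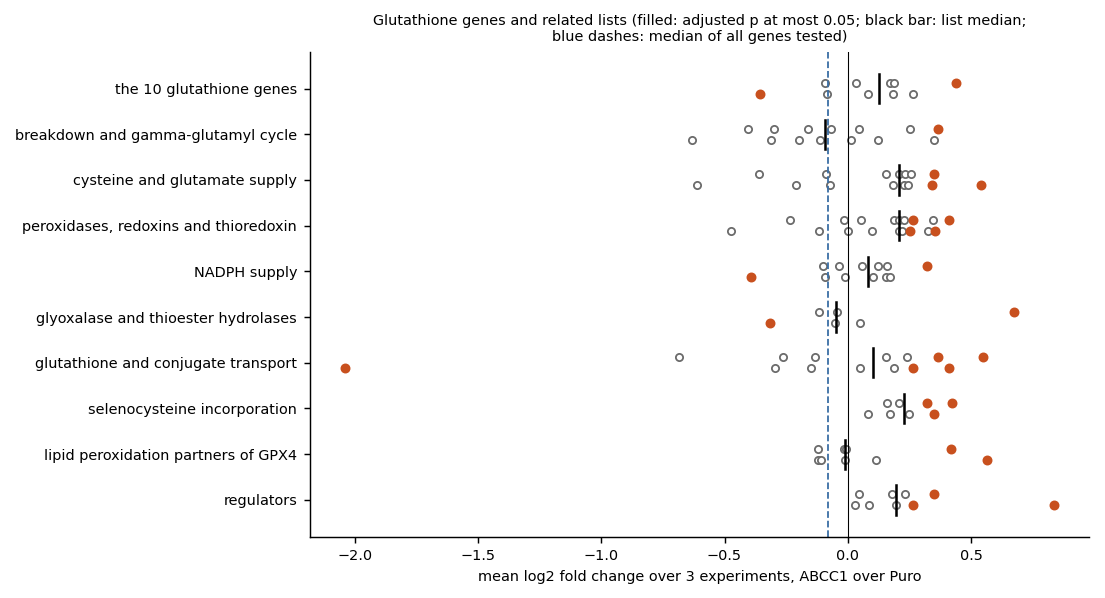
Mean log2 fold change over the 3 experiments for the 10 members (top row) and for the genes of 9 related lists; each point is a gene, filled at an adjusted p of at most 0.05, black bars are list medians and the blue dashes mark the median of all genes tested, -0.08. Most filled points are on the positive side (22 of 25 in the 9 lists), and the member medians lie at 0.13.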

How the data were processed

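The authors aligned reads with STAR 2.7.3a to GRCh37 and counted read pairs per Ensembl gene with featureCounts (Subread 2.0.0), ignoring strand; the deposited values are raw counts per library over 58003 features, including 92 spike-ins and 6 vector features. Gene symbols matched 51996 of 57905 Ensembl genes. Counts were filtered (filterByExpr, minimum count 10), scaled by TMM and tested two-sided with the robust quasi-likelihood test of edgeR 4.0.16 (R 4.3.3), per experiment and in 1 fit of 18 libraries with a mean intercept for each experiment, with Benjamini-Hochberg adjustment over all features. CPM per kb used the union of annotated exons. Alternatives were DESeq2 1.42.0, RLE factors, other filters, a replicate block, leaving out each library, and olfactory receptor reads as a covariate; scaling within experiments and background subtraction were added after the data were seen. Scripts were tested on simulated data. The members and lists were chosen with earlier results of these data known. The study's methods describe weekly platings of each line, and neither they nor the labels tie a library to a week, so p-values measure the spread between these libraries, which differed by more than sampling noise (chi-square per degree of freedom from 1.49 to 22.7). The lowest value was between RNA1 ABCC1 replicates 1 and 2, and replicate 3 of that group stood at 21.5 and 16.1 against them. Named pathway genes were those called in the mean effect, at most 4 per list, largest first. ABCC1 was added as the targeted gene, and CHAC1 and genes given as limits of a list were named after their values were seen. The bulk RNA cannot tell fewer cells from less RNA per cell. The labels of RNA1 name 2 different library kits, TruSeq RNA v2 and a SMARTer total RNA kit, and the study's methods give TruSeq for its first experiment.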

Additional observations from a re-analysis of the deposited data

Results flagged for a closer look

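ABCC11, an organic anion transporter named among the genes of glutathione and conjugate transport, differed in its ABCC1 effect between experiments (adjusted p = 7.71e-06 for the interaction test of edgeR over 46225 genes). It was at 0.659 CPM in RNA1 Puro and 3.10 CPM in RNA1 ABCC1, a log2 fold change of 2.27 (adjusted p = 5.96e-06), against -0.54 in RNA2 and -0.28 in RNA3. Background, which was lower in ABCC1, amounted to 39.7% to 53.2% of its level in RNA2 and RNA3, and its part in the difference was not tested. No member passed the test of a difference between experiments, which does not show that their effects were equal. Groups of 3 libraries were not examined for outlying libraries.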

How the results depend on the processing

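In RNA1, 1 member was called with background reads as a covariate (1705 genes), which does not overlap between the lines and left the changes of the other called members at 0.14 to 0.28 in size, and 0 with the spread shared across 18 libraries (1528 genes), where GSS stood at 0.055 and GSR at 2.0e-05. In RNA2, members called were 1 with DESeq2 (2583 genes), 1 with at least 10 counts in every library and 2 with shared spread (4924 genes), and genes called were 1086 with RLE, 1402 with no filter and 9 with the covariate. With at least 10 counts in every library, RNA2 signs turned for GCLC (-0.038), GCLM (-0.080), GSS (-0.055), GSR (-0.038) and GGCT (-0.0070), and with the covariate for GCLC (-0.18), GCLM (-0.080), GSR (-0.017) and OPLAH (0.12). In RNA3, 1 member was called with the covariate (GGCT, -0.72, adjusted p = 0.0124), which turned SLC7A11 (-0.23), GCLC (0.095), GCLM (-0.21), GSR (-0.29) and GPX4 (-0.26). GCLC in RNA3 also turned with DESeq2 (0.063), RLE (0.049), no filter (4.8e-04), at least 10 counts (0.019) and shared spread (0.066), and genes called were 1549 with DESeq2 and 1725 with at least 10 counts. For the mean effect the covariate left 1 member (GLRX) and 2193 genes. GSS turned there with DESeq2 (-0.060), RLE (-0.060), at least 10 counts (-0.15), the covariate (-0.053) and scaling within experiments (-0.033), GSR with the first 4 (-0.012, -0.011, -0.10 and -0.050), GCLC with at least 10 counts (-0.012) and OPLAH with the covariate (0.25). The difference between experiments was called for 893 genes with DESeq2 and 363 with at least 10 counts. The cause of these shifts was not tested.

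Leaving out 1 library at a time gave 3 to 6 members and 4663 to 7827 genes called in RNA1 (3 members without Puro replicate 1), 0 members and 8 to 1359 genes in RNA2, 0 to 1 and 394 to 2762 in RNA3, 2 to 4 and 4898 to 7196 for the mean effect, and 0 and 334 to 1113 for the difference between experiments. Signs turned within the ranges for GPX4 in RNA1 (-0.090 to 0.13), GCLC (-0.030 to 0.21), GCLM (-0.092 to 0.19), GSS (-0.031 to 0.14) and GGCT (-0.047 to 0.25) in RNA2, GCLC (-0.028 to 0.084), GSS (-0.22 to 0.042), GSR (-0.0087 to 0.24) and GPX4 (-0.052 to 0.20) in RNA3, and GSS (-0.010 to 0.098), GGCT (-0.14 to 0.016) and OPLAH (-0.19 to 9.4e-04) in the mean effect. GLRX and GGT7 kept their sign in every one of these fits.

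Replicate numbers did not pair the libraries: same-numbered libraries correlated at -0.28 to -0.01 in RNA1, -0.08 to 0.05 in RNA2 and -0.07 to 0.27 in RNA3. With a replicate block, 4 members were called in RNA1 (SLC7A11 and GCLM were not), 0 in RNA2 and RNA3 and 2 in the mean effect, and genes called in RNA3 were 1885 against 1021. OPLAH had at most 6 counts per library in RNA1, too few for the filter, although RNA1 had the deepest libraries.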
